A study of Danio rerio with 8 samples.

Results

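The transcripts of the apoptosis machinery were examined in sorted zebrafish venous and lymphatic endothelial cells that were mutant for ddx21 or came from siblings. The set holds 30 of the 32520 genes in the count table and was chosen by gene name: caspases, the apoptosome, the pore-forming, BH3-only and protective branches of the Bcl2 family, inhibitors of caspases and the antagonists of those inhibitors. RNA sequencing gave 4 libraries from ddx21 mutants and 4 from embryos labelled as siblings, all at 3 days post fertilisation (dpf). Both groups carried Tg(fli1a:nEGFP), a green nuclear reporter of endothelium, and Tg(5.2lyve1b:DsRed), a red reporter of veins and lymphatics, and cells positive for both were collected. The labels name neither the ddx21 allele nor the genotype of the siblings, and they do not say how many embryos went into a library or whether libraries of 1 group came from separate clutches. The p-values therefore rest on library-to-library spread alone, and whether that spread is biological or technical is not stated. Ddx21 is an RNA helicase of the nucleolus that takes part in making ribosomes, and the series title connects its loss with signalling through p53 and p21. The question here is whether that signal reaches the genes that carry out cell death.

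In the mitochondrial pathway of apoptosis, BH3-only proteins sense damage, switch off the protective Bcl2 proteins and set free the pore former Bax. Pores in the outer mitochondrial membrane release cytochrome c, which assembles with Apaf1 into the apoptosome and activates caspase 9, which in turn activates the executioner caspases. The tumour suppressor p53 is known to switch on several of these genes in vertebrates, with bbc3 (Puma), pmaip1 (Noxa) and bax the classic ones. Its other targets halt the cell cycle, repair DNA or, like mdm2, feed back on p53. Much of the machinery is regulated at the level of proteins, by cleavage and binding, which RNA counts do not show.

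The libraries held between 38459219 reads in sibling 1 and 51173007 in mutant 4. Values are CPM, counts scaled to a common library total, after TMM scaling, which adjusts for library composition. Libraries of the same number deviated together from their group means, so mutant and sibling of a number were treated as a pair, and a second fit took that number as a block. The labels do not state this pairing, and sibling 1 correlated with mutant 2 (0.153) no less than with mutant 1 (0.141). Of the 30 members 7 were matched only through a human-style symbol without the copy letter: BAX stands for baxa, BCL2 for bcl2b and CASP6 for casp6a. BOK is carried by 2 identifiers, so the identifier stands beside it, and which is copy a and which copy b was not settled. Values are given for 28 of the 30 members, and counts cover all 30. DDX21, the mutated gene, held 233, 266, 170 and 217 CPM in mutants 1 to 4 and 245, 364, 337 and 301 CPM in siblings 1 to 4. The groups overlapped and the mutant held less in 4 of 4 pairs (log2 -0.50, SE 0.21, edgeR adjusted p = 1), at an unadjusted edgeR p under 0.05 with and without the block. The sorted cells expressed the endothelial markers, with a summed level of 2671 to 7420 CPM in mutants and 3623 to 7959 CPM in siblings over 12 genes. They also held keratins and other epidermal markers (17 genes) at 4565 to 86970 CPM in mutants and 2540 to 51370 CPM in siblings. The epidermal sum exceeded the endothelial sum in every library except mutant 4 and sibling 4, with 86970 against 2671 CPM in mutant 1. The libraries are thus not endothelial RNA alone. In bulk RNA of this kind, fewer cells of a type and less RNA per cell cannot be told apart.

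No apoptosis gene passed the test between mutants and siblings. All 30 members cleared the filter on low counts, and 14 of them had a log2 fold change (mutant over sibling) above 0, or 46.7%, against 50.2% of the 18549 genes tested. The median over the members was -0.10, against 0.003 over all genes. The edgeR quasi-likelihood test called 0 members at an adjusted p under 0.05, where it called 0% of all genes, with or without the replicate number as a block. At an unadjusted p under 0.05 it gave 1 member, cycsb, which was higher, or 3.33% of the members against 3% of all genes. With the block it gave cycsb as higher and bada and badb as lower, 3 members or 10%, against 5.85% of all genes (2.98% higher and 2.88% lower). DESeq2 called 0 members (0.334% of all genes) and, with the block, cycsb and bcl2b, 6.67% of the members against 2.85% of all genes. The count of 1 at an unadjusted p fell to 0 without mutant 1, sibling 3 or sibling 4. It was 2 without mutant 2 (bada and bcl2b), mutant 4 (cycsb and badb) or sibling 2 (cycsb and baxa). Without mutant 3 it was 1, with bida in place of cycsb. With 1 library left out, cycsb thus stayed only without mutant 4, sibling 1 or sibling 2. Over all genes, the fits without 1 library gave 530 to 808 at that threshold, against 556 with all 8 libraries.

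**Figure D1:**
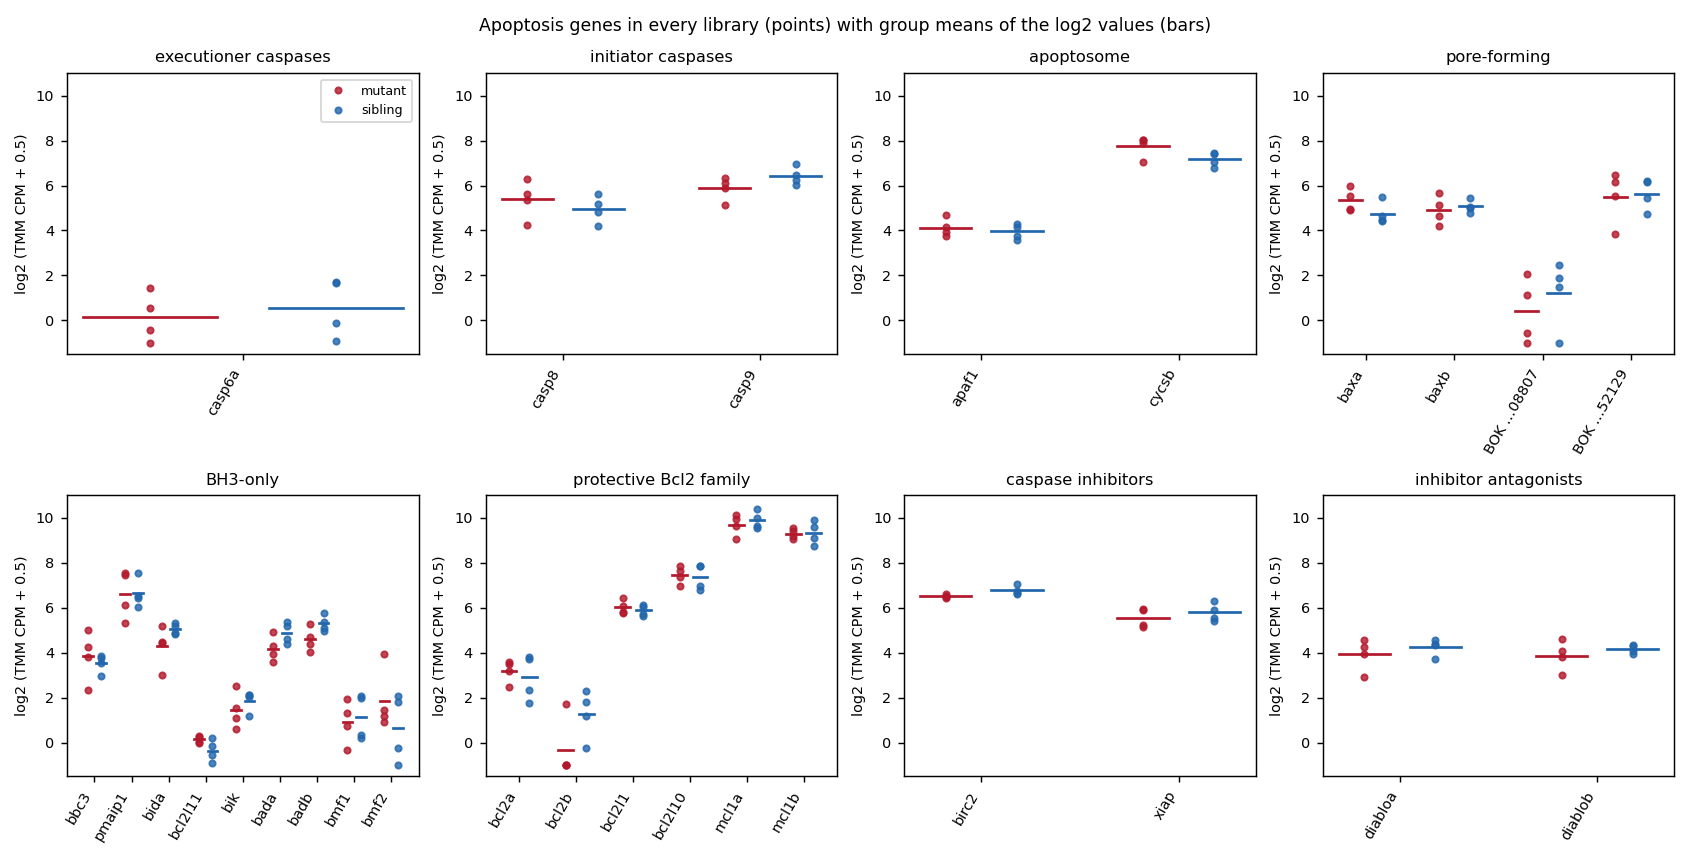
Level of each apoptosis gene, as log2 of TMM CPM + 0.5, for the 28 members described, in 4 mutant libraries (red, left) and 4 sibling libraries (blue, right), with 1 panel per role and a bar at the group mean of the log2 values. The red and blue points overlap for every gene except birc2, whose 4 mutant libraries sit below all 4 sibling libraries.

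Of the executioner caspases, the proteases that dismantle the cell, casp6a was low and uneven, with 0 to 118 reads in mutants and 1 to 112 in siblings. Mutant 1 had 0 reads, which allows up to 0.0719 CPM at 3 reads, and mutants 2 to 4 held 0.976, 2.25 and 0.233 CPM, against 2.62, 2.75, 0.407 and 0.0215 CPM in siblings 1 to 4. The mutant was lower in pairs 1 and 2 and higher in pairs 3 and 4, and in both groups some libraries held hardly any reads. The log2 fold change was -0.74 with an SE of 1.75 (95% interval -4.65 to 3.17, edgeR adjusted p = 1). With this spread between libraries neither a rise nor a fall was detectable.

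Of the initiator caspases, casp8, which acts downstream of death receptors, and casp9, which the apoptosome activates, went opposite ways without passing. For casp9 the levels were 80.5, 69.1, 35.0 and 59.5 CPM in mutants 1 to 4 and 63.8, 75.0, 88.4 and 125.0 CPM in siblings 1 to 4. Mutants 3 and 4 lay below every sibling, while mutants 1 and 2 lay among them, and the log2 fold change was -0.53 (SE 0.30, 95% interval -1.20 to 0.14, edgeR adjusted p = 1). For casp8 the levels were 78.8, 49.2, 40.2 and 18.4 CPM in mutants 1 to 4 and 35.9, 27.7, 48.9 and 18.1 CPM in siblings 1 to 4 (log2 0.52, SE 0.44). Its excess in mutants came from pairs 1 and 2, with log2 ratios of 1.13 and 0.82, against -0.28 and 0.03 in pairs 3 and 4.

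The apoptosome holds the member with the smallest p of the whole set. Cytochrome c from cycsb is an electron carrier of the respiratory chain and triggers the apoptosome once it leaves the mitochondria, so its transcript level is not specific to cell death. Mutants 1 to 4 held 258, 236, 264 and 133 CPM, against 175, 168, 132 and 110 CPM in siblings 1 to 4. Mutants 1 to 3 lay above every sibling and mutant 4 within their range. The mean was 223 ± 61.1 CPM in mutants and 146 ± 30.8 CPM in siblings (SD, n = 4 each). The log2 fold change was 0.61 (SE 0.26, 95% interval 0.03 to 1.19, edgeR adjusted p = 1). It was higher in the mutant of 4 of 4 pairs, and with the block the log2 fold change was 0.58 (SE 0.16, edgeR adjusted p = 0.70). DESeq2 with the block called it (adjusted p = 0.041), at the low end of a range up to 1 over the 16 alternatives. The paired gene of cytochrome c, cycsa, is listed at 0 reads in all 8 libraries.

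The scaffold gene apaf1, which holds cytochrome c and caspase 9 together and is a p53 target in vertebrates, stood at 14.6, 25.1, 12.97 and 17.1 CPM in mutants 1 to 4. Siblings 1 to 4 held 11.6, 19.2, 13.2 and 17.5 CPM. The groups overlapped throughout, with pairs 1 and 2 higher and pairs 3 and 4 all but equal (log2 0.18, SE 0.34, 95% interval -0.57 to 0.94).

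Among the 4 pore-forming genes, whose products perforate the mitochondrial membrane, the median log2 fold change was -0.03. The p53 target baxa held 30.3, 45.8, 62.4 and 30.01 CPM in mutants 1 to 4 and 24.8, 43.9, 21.3 and 21.1 CPM in siblings 1 to 4. Each mutant lay above the sibling of its number, by a log2 ratio of 0.28, 0.06, 1.53 and 0.50, but sibling 2 lay above mutants 1 and 4. The log2 fold change was 0.60 (SE 0.34, 95% interval -0.17 to 1.37, edgeR adjusted p = 1). Its value was 0.35 without mutant 3 and 0.91 without sibling 2.

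The other Bax gene, baxb, stood at 17.7 to 50.0 CPM in mutants and 27.3 to 43.6 CPM in siblings (log2 -0.08, SE 0.34). As a share of the reads of both Bax genes, baxa took 57.5 ± 8.49% in mutants and 44.5 ± 12.2% in siblings (SD, n = 4 each), and the groups overlapped between 46.4% and 61.6%. Bok, a Bax relative, had 1 gene with most of the reads (ENSDARG00000052129) at 88.6, 70.8, 45.4 and 13.8 CPM in mutants 1 to 4 and 71.2, 73.5, 43.1 and 25.8 CPM in siblings 1 to 4. The means all but coincided (log2 0.03, SE 0.52), while libraries of the same number resembled each other. The second Bok gene (ENSDARG00000008807) reached 3.69 CPM in mutants and 5.04 CPM in siblings at most and had 0 reads in mutant 4, which allows up to 0.0538 CPM at 3 reads, and in sibling 4, which allows up to 0.0644 CPM.

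The 9 BH3-only genes, the sensors that start the process, did not share a direction: for 4 the log2 fold change was above 0 and for 5 below. The median was -0.34, which is the value of bik (SE 0.87) and bmf1 (SE 1.15), genes with few reads. This median was 0.06 without sibling 1 and -0.0028 without sibling 4. Of the p53 targets among them, bbc3 and pmaip1 had fitted values above 0 and bida one below, and for each of the 3 genes the pairs differed in sign. For bbc3, which encodes Puma, mutants 1 to 4 held 18.4, 13.5, 4.56 and 31.4 CPM and siblings 1 to 4 held 13.1, 13.8, 7.35 and 11 CPM. Mutants held both the highest and the lowest value of the 8 libraries, and the log2 fold change was 0.59 (SE 0.53, 95% interval -0.60 to 1.77). Without mutants 1 and 4 and sibling 4, the libraries with the lowest quality weights, it was -0.32.

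For pmaip1, which encodes Noxa, an antagonist of Mcl1, the levels were 184, 175, 68.5 and 39.8 CPM in mutants 1 to 4 and 92.5, 187, 64.5 and 86.0 CPM in siblings 1 to 4. The highest library was a sibling and the lowest a mutant, with a log2 fold change of 0.12 (SE 0.50, 95% interval -1.0 to 1.23) and of -0.03 with the block. The Bid gene bida, whose product links death receptors to the mitochondria, held 21.0, 22.0, 36.2 and 7.64 CPM in mutants 1 to 4, against 28.4, 29.3, 35.7 and 39.2 CPM in siblings 1 to 4. In 3 of 4 pairs the mutant was the lower one (log2 -0.61, SE 0.41, 95% interval -1.52 to 0.31), and the widest gap was in pair 4.

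The 2 Bad genes were the BH3-only members with the most even difference. Bad proteins bind and block Bcl2 and Bclxl and are held inactive by phosphorylation when growth factors are present. Mutants 1 to 4 held 11.6, 29.6, 14.9 and 19.1 CPM of bada, and siblings 1 to 4 held 20.7, 35.7, 24.0 and 41.0 CPM. Mutants 1 to 4 held 20.6, 25.5, 15.7 and 37.8 CPM of badb, and siblings 1 to 4 held 31.2, 34.0, 40.3 and 54.0 CPM. For both genes the mutant was the lower library in 4 of 4 pairs, and for both the ranges of the groups overlapped. The log2 fold change was -0.69 (SE 0.37, 95% interval -1.51 to 0.12) for bada and -0.68 (SE 0.32, 95% interval -1.40 to 0.04) for badb, each at an edgeR adjusted p of 1. With the block the values were -0.72 (SE 0.26, edgeR adjusted p = 0.82) for bada and -0.72 (SE 0.25, edgeR adjusted p = 0.81) for badb. The value of bada was -0.25 without mutants 1 and 4 and sibling 4, while that of badb was -0.76. The share of bada in the reads of both Bad genes was 43.0 ± 9.74% in mutants and 42.9 ± 6.04% in siblings (SD, n = 4 each).

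The remaining BH3-only genes had few reads. The gene of Bim, bcl2l11, held 0.499 to 0.743 CPM in mutants and 0.0246 to 0.644 CPM in siblings, and was higher in the mutant of 4 of 4 pairs at a level where sibling 2 had 1 read (log2 0.94, SE 1.17). For bik the range was 1.03 to 5.27 CPM in mutants and 1.79 to 3.89 CPM in siblings. The 2 Bmf genes, whose products respond to loss of cell attachment, reached at most 3.40 CPM in mutants and 3.75 CPM in siblings for bmf1, and 15.0 CPM in mutants and 3.68 CPM in siblings for bmf2. The high bmf2 value was that of mutant 4, without which the log2 fold change of 1.53 was 0.03, and sibling 4 had 0 reads, which allows up to 0.0644 CPM at 3 reads.

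**Figure D2:**
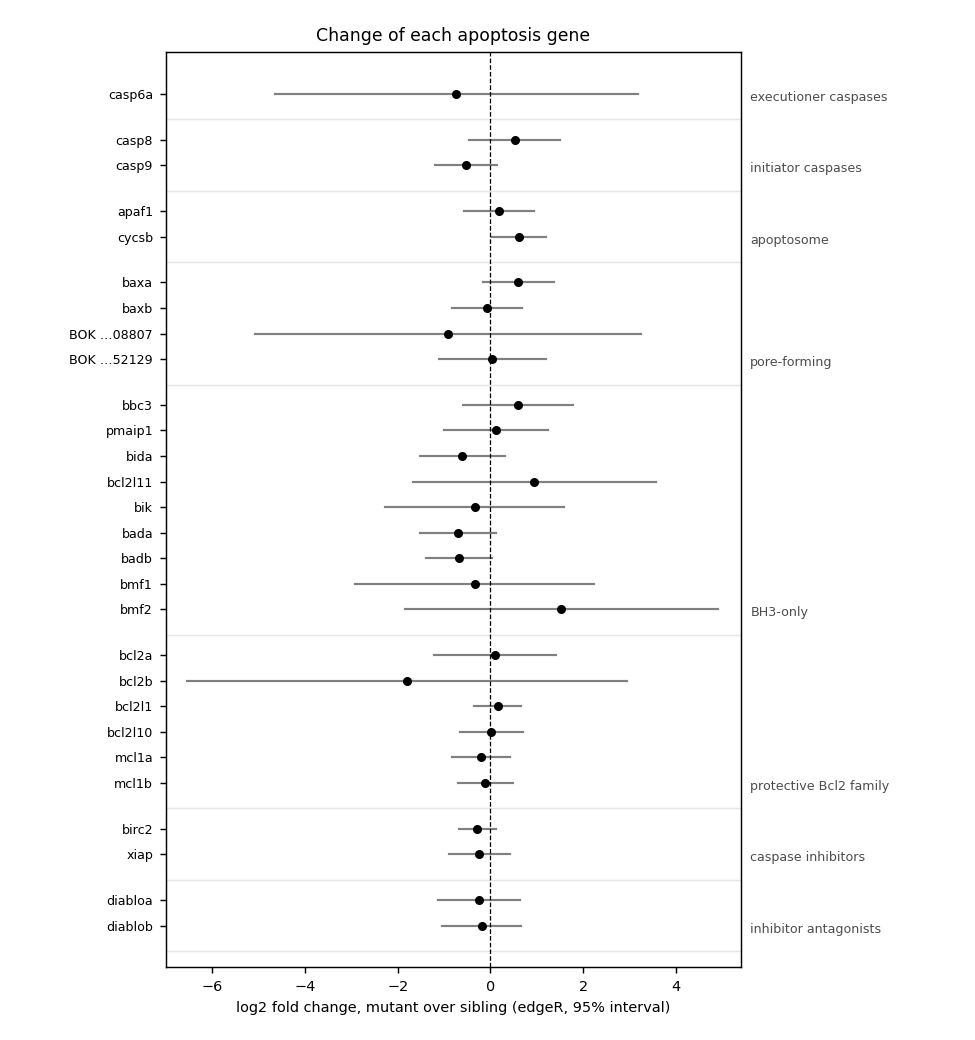
Log2 fold change, mutant over sibling, of the 28 apoptosis genes described, from edgeR without the replicate block (points) with 95% intervals (lines), grouped by role. The interval of cycsb, from 0.03 to 1.19, is the only one of the 28 that does not cross 0, before any adjustment for the number of genes tested. As the intervals were worked back from the edgeR test, this restates its unadjusted p under 0.05.

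The 6 protective Bcl2 genes, whose products hold Bax in check, had a median log2 fold change of -0.04. The Mcl1 genes had the most reads of the family. Mutants 1 to 4 held 977, 1106, 796 and 540 CPM of mcl1a, and siblings 1 to 4 held 748, 1362, 792 and 1030 CPM (log2 -0.20, SE 0.28, 95% interval -0.82 to 0.42). For mcl1b the range was 530 to 739 CPM in mutants and 428 to 974 CPM in siblings (log2 -0.11, SE 0.27). The share of mcl1a in the reads of both was 56.5 ± 10.2% in mutants and 59.1 ± 9.999% in siblings (SD, n = 4 each).

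The gene of Bclxl, bcl2l1, had one of the narrowest intervals of the set. It held 53.3, 56.1, 66.6 and 87.0 CPM in mutants 1 to 4 and 52.7, 49.7, 68.3 and 65.3 CPM in siblings 1 to 4, with a log2 fold change of 0.16 (SE 0.23, 95% interval -0.35 to 0.66). For bcl2l10, a protective gene known as nrz in zebrafish, the range was 125 to 230 CPM in mutants and 111 to 234 CPM in siblings (log2 0.02, SE 0.30, 95% interval -0.65 to 0.70).

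Of the 2 genes of Bcl2 itself, bcl2a stood at 5.02 to 11.3 CPM in mutants and 2.88 to 13.4 CPM in siblings (log2 0.10, SE 0.59). The scarcer bcl2b had 0 reads in mutants 1, 3 and 4, which allows up to 0.0719 CPM at 3 reads, and 2.75 CPM in mutant 2. Siblings 1 to 4 held 3.03, 1.77, 4.42 and 0.344 CPM. Mutant 2 lay within the range of the siblings, the log2 fold change of -1.80 had an SE of 2.13, and edgeR gave an adjusted p of 1. That value rests on mutant 2: it was -9.81 without this library, where all mutants are at 0 reads and the fitted size depends on the prior count, and -7.14 with the block. DESeq2 with the block called bcl2b (adjusted p = 0.014, at the low end of a range up to 1 over the 16 alternatives), where edgeR with the block did not (adjusted p = 0.88).

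Downstream of the mitochondria, the caspase inhibitors birc2 and xiap block caspases or the signals that activate them, and in 4 of 4 pairs the mutant held less of each. For birc2 mutants 1 to 4 held 85.2, 88.2, 96.7 and 92.6 CPM, against 97.7, 99.9, 134 and 107 CPM in siblings 1 to 4. It was the 1 member whose groups did not overlap (3.33% of the members, where 1.83% of all genes had all mutants below all siblings). Mutant 3 and sibling 1 were 1 CPM apart. The mean was 90.7 ± 5.06 CPM in mutants and 110 ± 16.9 CPM in siblings (SD, n = 4 each). The log2 fold change was -0.28 (SE 0.18, 95% interval -0.68 to 0.12, edgeR adjusted p = 1). Without sibling 3 it was -0.17. For 0 members did all 4 mutants lie above all 4 siblings, as they did for 1.42% of all genes.

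The inhibitor xiap stood at 36.8, 34.6, 61.7 and 59.5 CPM in mutants 1 to 4 and 46.2, 41.5, 79.4 and 59.9 CPM in siblings 1 to 4 (log2 -0.24, SE 0.29). Pair 4 was all but equal, with a log2 ratio of -0.01. The 2 diablo genes, whose products leave the mitochondria and bind such inhibitors, overlapped fully. For diabloa the levels were 18.4, 7.15, 14.9 and 23.3 CPM in mutants 1 to 4 and 19.8, 23.1, 20.2 and 12.7 CPM in siblings 1 to 4 (log2 -0.25, SE 0.40). For diablob the range was 7.51 to 23.7 CPM in mutants and 14.9 to 19.9 CPM in siblings (log2 -0.19, SE 0.38).

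**Figure D3:**
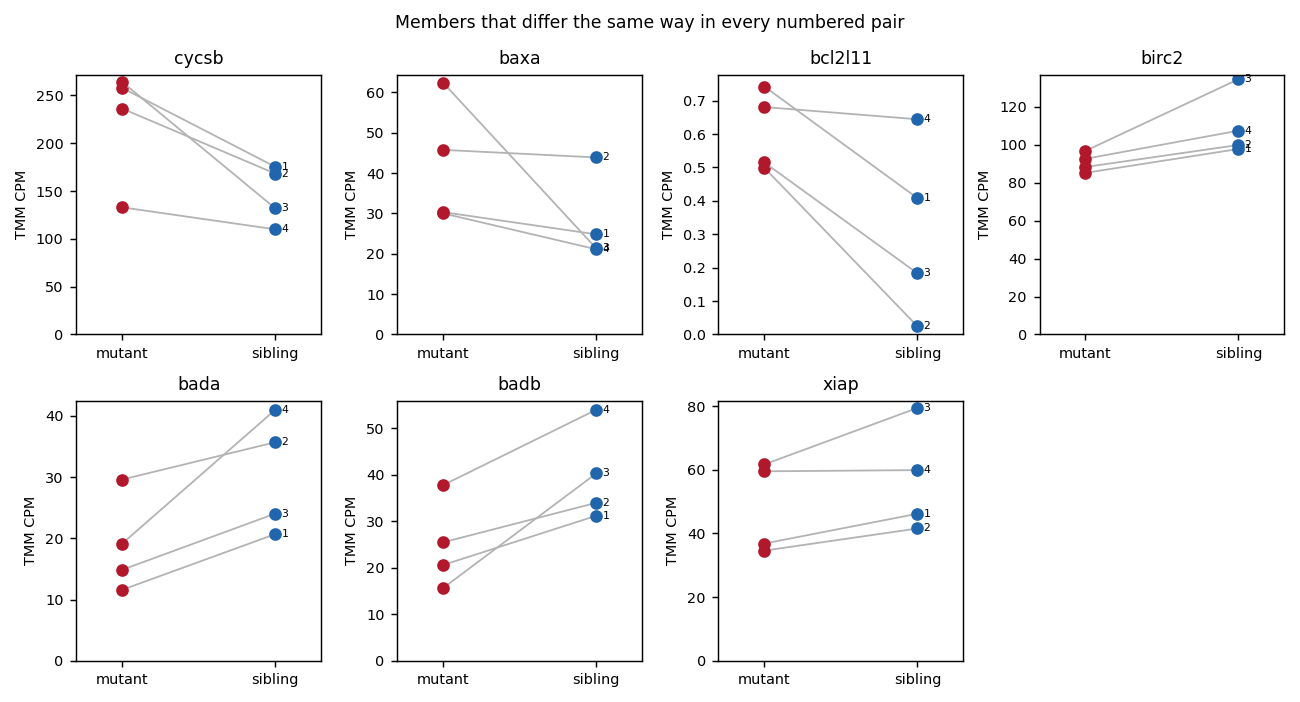
TMM CPM of the 7 members that differed in 1 direction in all 4 numbered pairs, mutants (red, left) joined by a line to the sibling of the same number (blue, right), each axis starting at 0. Lines run down to the siblings for cycsb, baxa and bcl2l11 and up to them for birc2, bada, badb and xiap.

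Within the numbered pairs, 3 members were higher in the mutant of 4 of 4 pairs (cycsb, baxa and bcl2l11), or 10%, where 8% of all genes were. Lower in 4 of 4 pairs were 4 members (bada, badb, birc2 and xiap), or 13.3%, against 8.42% of all genes. With 30 genes these shares are near the background. The 7 do not form 1 branch: they include a pore former, sensors of both directions, inhibitors of caspases and an electron carrier. Of the epidermal markers 13 of 17 had a log2 fold change above 0 (median 0.55), and their summed level was higher in the mutant of each pair. Of the muscle markers 10 of 11 were above 0 (median 0.78), summing to 2201 to 7693 CPM in mutants and 1252 to 5937 CPM in siblings. Of the endothelial markers 11 of 12 were below 0 (median -0.12), and of the venous and lymphatic markers 9 of 13 (median -0.29). The median was 0.06 for leukocyte, -0.55 for erythroid and -0.26 for neural markers. Of the liver markers 14 of 15 tested were below 0 (median -3.14), at 374 to 2700 CPM in mutants and 1052 to 5582 CPM in siblings over 16 genes. With the block 7 of 17 epidermal and 7 of 11 muscle markers were higher at an unadjusted edgeR p under 0.05 (2.98% of all genes). So were 1 of 13 venous and lymphatic and 1 of 15 liver markers. Lower were 2 of 12 endothelial, 2 of 13 venous and lymphatic and 12 of 15 liver markers (2.88% of all genes). Also lower were 2 of 12 leukocyte, 1 of 9 erythroid and 3 of 17 neural markers. No gene of the epidermal, muscle, endothelial or liver list was at 0 in all libraries, and the part of such cells in the members' differences was not tested.

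Outside the cell death genes, 4 of 26 tested p53 targets had all mutants above all siblings, against 1.42% of all genes. The gene with the smallest p among them was ccng1, which encodes cyclin G1, a partner of a phosphatase that acts on the p53 pathway. Mutants 1 to 4 held 804, 789, 556 and 557 CPM, against 194, 297, 164 and 107 CPM in siblings 1 to 4. The groups stood far apart, and the log2 fold change was 1.83 (SE 0.31, 95% interval 1.13 to 2.53), with 4 of 4 pairs higher. The edgeR adjusted p was 0.62 and did not pass, while DESeq2 called the gene (adjusted p = 7.4e-05). Over the 16 alternatives the adjusted p of ccng1 ran between 3.6e-20 and 1.

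For mdm2, the ubiquitin ligase that degrades p53, mutants 1 to 4 held 99.3, 108, 96.3 and 94.3 CPM, against 29.7, 57.8, 50.7 and 54.4 CPM in siblings 1 to 4 (log2 1.05, SE 0.23, edgeR adjusted p = 0.82). All 4 mutants lay above all 4 siblings. For cdkn1a, the gene of the cell cycle inhibitor p21, mutants 1 to 4 held 172, 152, 248 and 206 CPM, against 79.9, 90.0, 192 and 146 CPM in siblings 1 to 4. The mutant was higher in 4 of 4 pairs, but sibling 3 lay above mutants 1 and 2 (log2 0.62, SE 0.30, edgeR adjusted p = 1).

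Of 26 tested genes on the list of p53 targets outside cell death, 5 were higher at an unadjusted edgeR p under 0.05 and 1 was lower, where 1.33% and 1.67% of all genes were. That list was drawn up with results of these data known, and setting its genes apart from cell death was a choice made here. Beside ccng1 and mdm2, the higher ones were phlda3, an inhibitor of Akt (log2 2.16, SE 0.44), rps27l, a ribosomal protein homologue (log2 1.36, SE 0.26), and the GADD45A gene ENSDARG00000043581 of the stress response (log2 1.60, SE 0.49). The lower one was ccng2, encoding cyclin G2 (log2 -0.69, SE 0.26). Whether p53 controls ccng2 or any other listed gene in these cells was not tested. Whether phlda3, rps27l or this GADD45A gene also takes part in cell death was not tested either, so the line between the lists is not sharp. In edgeR 0 of the 26 passed an adjusted p of 0.05, while DESeq2 without the block called ccng1, phlda3 (adjusted p = 0.0018), rps27l (adjusted p = 0.0018) and mdm2 (adjusted p = 0.03). Over the 16 alternatives each of these reached an adjusted p of 1 at the upper end, with lowest values of 7e-07 for phlda3, 3e-07 for rps27l and 0.0012 for mdm2. DESeq2 with the block also called this GADD45A gene (adjusted p = 9.1e-07), ccng2 (adjusted p = 0.014) and cdkn1a (adjusted p = 0.013), each of which reached 1 at the upper end of the 16 alternatives. With the block 8 were higher and 3 lower at an unadjusted edgeR p under 0.05, where 2.98% and 2.88% of all genes were. The gene cdkn1a was now among the higher (log2 0.68). The list also held targets with values near 0, such as sesn1 (log2 0.05, SE 0.36), a stress-induced regulator of growth signalling. Over the 26 tested genes 15 log2 fold changes were above 0 and 11 below, from -0.78 to 2.16. Their median was 0.12, and 0.03 with the block, so the list did not rise as a whole.

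The 5 members named as p53 targets (baxa, bbc3, apaf1, pmaip1 and bida) had log2 fold changes of -0.61 to 0.60. Their median was 0.18, and 0.17 with the block, against 0.12 and 0.03 over the list of p53 targets outside cell death. Of these members 0 of 5 were at an unadjusted edgeR p under 0.05 with or without the block. The upper ends of the 95% intervals were 1.37 for baxa, 1.77 for bbc3, 0.94 for apaf1, 1.23 for pmaip1 and 0.31 for bida. An increase of baxa, bbc3 or pmaip1 by a log2 of 1 lies within their intervals and could not be told from no change with 4 libraries a group. The difference in response between these members and the other targets was not tested.

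**Figure D4:**
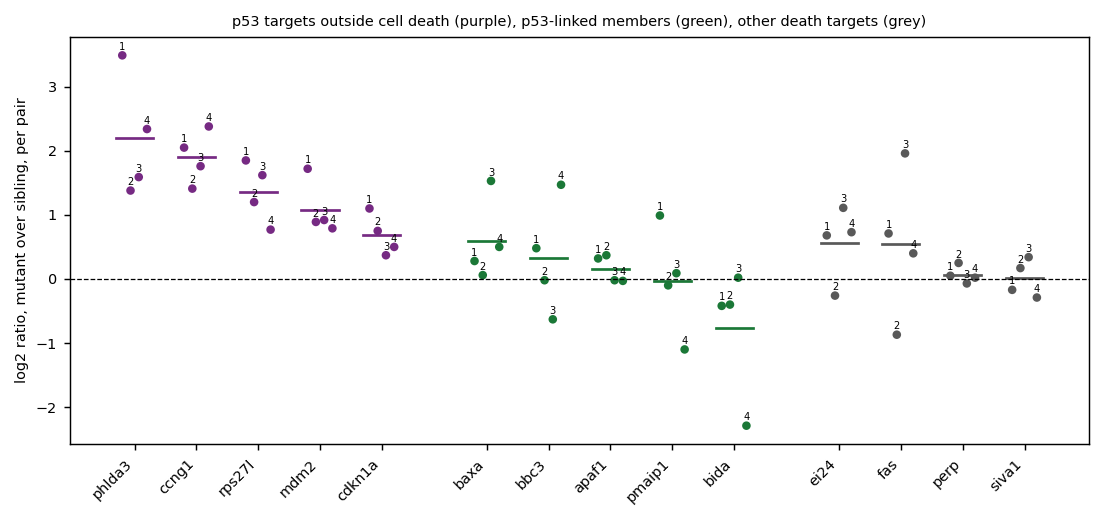
Log2 ratio of mutant over sibling in each numbered pair (points with their pair number) and the mean over pairs (bars), from TMM CPM + 0.5. The purple and grey genes were picked from longer lists and do not stand for them, and the split into these lists was a choice made here. Of 26 tested targets outside cell death 15 had a fitted value above 0 and 11 below, with ccng2 (-0.69) not shown. Of 10 further death targets 7 were above 0 and 3 below, with pidd1 (-0.52) not shown. The 4 ratios of phlda3, ccng1, rps27l, mdm2 and cdkn1a (purple) all lie above 0, those of the p53-linked apoptosis genes bbc3, apaf1, pmaip1 and bida (green) fall on both sides of it, those of baxa run from 0.06 to 1.53, and 4 further death-related targets (grey) are centred between 0 and 0.6.

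Further p53 targets with roles in cell death, which are not among the 30, gave no call: 0 of 10 tested were at an unadjusted edgeR p under 0.05, and the median log2 fold change was 0.03. The lowest p belonged to ei24, a membrane protein gene induced by p53 (23.8 ± 8.10 CPM in mutants, 16.1 ± 5.54 CPM in siblings, SD, n = 4 each, log2 0.56, SE 0.38). Next came the death receptor gene fas (log2 0.70, SE 0.80, and 0.17 without mutant 3) and pidd1, a scaffold that activates caspase 2 (log2 -0.52, SE 2.16). Others lay close to 0, among them perp (log2 0.05, SE 0.24) and siva1 (log2 -0.02, SE 0.26).

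In the extrinsic pathway, ligands of the TNF family act through death receptors and adaptors. The list drawn up for it had 14 of 17 tested genes above 0 on the log2 scale, against 50.2% of all genes, and a median of 0.40. That list also holds pidd1, casp2 and cradd, so it is wider than this pathway. It shares fas and pidd1 with the death targets of p53 above, and casp2 with the other caspases below. At an unadjusted edgeR p under 0.05 there were 0 of 17, against 3% of all genes. In 4 of 4 pairs the mutant held more of 5 of the 17, against 8% of all genes. The smallest p belonged to dap3 (98.7 ± 28.6 CPM in mutants, 74.9 ± 9.92 CPM in siblings, SD, n = 4 each, log2 0.40, SE 0.24), whose product is also a mitochondrial ribosomal protein. Then followed the Trail ligand gene tnfsf10 (log2 0.36, SE 0.21) and daxx (log2 0.56, SE 0.39), which encodes a nuclear adaptor. The ligand gene tnfa is listed at 0 reads in all 8 libraries.

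The other caspases (8 genes) summed to 302, 325, 103 and 50.3 CPM in mutants 1 to 4 and 185, 259, 71.5 and 35.6 CPM in siblings 1 to 4. Like the epidermal sum, this was higher in replicates 1 and 2 and in the mutant of each pair, and a link was not tested. Of 6 tested, 5 were above 0 (median 0.22), against 50.2% of all genes. In every pair the mutant held more of 3 of the 6, against 8% of all genes. At an unadjusted edgeR p under 0.05 there were 0 of 6, against 3% of all genes. The lowest p values belonged to casp6b.1 (log2 1.01, SE 1.71, with 0.43 to 3.5 when single libraries were left out), casp20 (log2 0.22, SE 0.37, with 0.01 to 0.41) and the inflammatory caspase gene caspb (log2 0.74, SE 1.46, with 0.25 to 1.66). The wider Bcl2 family and mitochondrial death genes were 12 above and 12 below 0 of 24 tested (median 0.01), led by endog, a mitochondrial nuclease gene (log2 1.15, SE 0.55, and 0.38 without mutant 1), aifm1, whose product can move from mitochondria to the nucleus (log2 0.35, SE 0.26), and the protease gene htra2 (ENSDARG00000069909, log2 0.34, SE 0.29). Among 11 tested genes of caspase substrates and further caspase inhibitors the median was 0.16, and the smallest p belonged to the lamin gene lmna (log2 0.75, SE 0.38), parp1 (log2 0.37, SE 0.23) and rock1 (log2 -0.32, SE 0.28). In both of these lists 0 genes were at an unadjusted edgeR p under 0.05.

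For several members the spread between libraries followed the replicate number more than the genotype. In pmaip1 and the main BOK gene, replicates 1 and 2 of both groups all lay above replicates 3 and 4 of both groups, and in bcl2l1, bcl2l10, mcl1b and xiap they all lay below. Of the 30 members 6.67% were above in this way, near the 6.44% of all genes, and 13.3% were below, against 5.42% of all genes. This is a description without a test. The summed epidermal markers stood at 86970, 62130, 12310 and 4565 CPM in mutants 1 to 4 and 32450, 51370, 8790 and 2540 CPM in siblings 1 to 4. The summed endothelial markers stood at 2671, 3932, 6256 and 7420 CPM in mutants 1 to 4 and 3676, 3623, 7243 and 7959 CPM in siblings 1 to 4. Epidermal RNA was thus richest, and endothelial RNA poorest, in the libraries numbered 1 and 2, and its part in the levels of these 6 members was not tested. Within a group the 28 members described varied by a median coefficient of variation of 42.2% in mutants and 31.0% in siblings, against 52.95% and 47.5% over all genes tested. The members and all genes were not matched for read depth, so the lower values do not set the members apart.

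**Figure D5:**
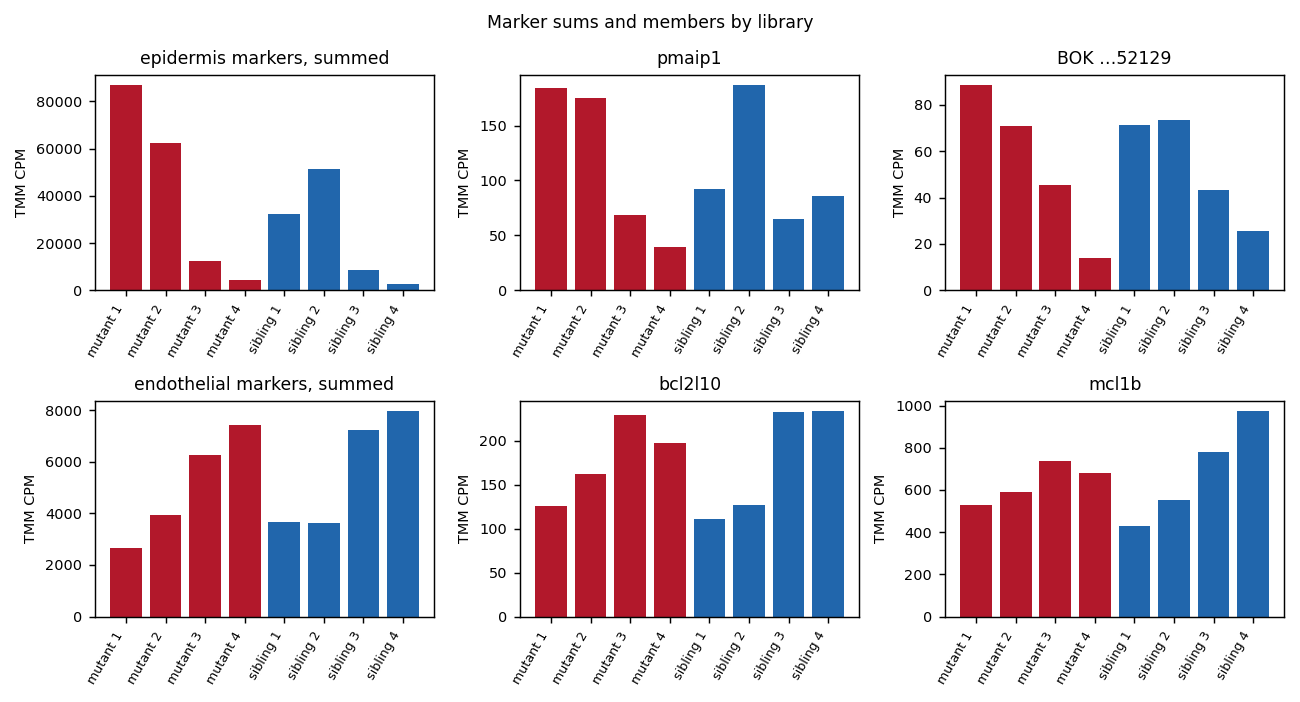
TMM CPM in each of 4 mutant (red) and 4 sibling (blue) libraries for the summed epidermal markers (17 genes), the summed endothelial markers (12 genes) and 4 members, with bars from 0. In both groups epidermal markers, pmaip1 and the main BOK gene are higher in replicates 1 and 2, while endothelial markers, bcl2l10 and mcl1b are higher in replicates 3 and 4.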

How the data were processed

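Per the labels, RNA from double-positive sorted cells was sequenced. The authors deposited raw read counts per Ensembl gene and a table of log2 values named as normalised and batch-corrected. Each deposited log2 value equalled the log2 of CPM + 1 from the counts (largest difference 5e-14), so it holds no batch correction. The submitters' processing notes list Subread 2.0.0, featureCounts, FastQC and edgeR and the build GRCz11. The strand setting and the annotation release were not found in these sources. Overlapping or antisense genes may therefore share reads, and near-identical copies may lose them.

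Counts were analysed here with edgeR 4.0.16 in R 4.3.3: filterByExpr (minimum count 10, minimum total 15) kept 18549 genes, with TMM scaling, a robust quasi-likelihood fit on group alone, and Benjamini-Hochberg adjustment over all tested genes. The SEs and 95% intervals of edgeR were worked back from the log2 fold change and the F statistic of that fit. Whether such an interval crosses 0 therefore restates the unadjusted test. Read intervals and floors cover counting error only. Alternatives used DESeq2 1.42.0 and limma 3.58.1. Pair ratios use log2(CPM + 0.5). Same-numbered libraries deviated together from their group means (correlations 0.141, 0.227, 0.107 and 0.272 for numbers 1 to 4), so the numbers were taken to pair the libraries, from these data and not from the labels. Across numbers, the correlation was 0.153 for mutant 2 with sibling 1 and 0.0995 for mutant 1 with sibling 2. These values therefore do not settle which mutant goes with which sibling in numbers 1 and 2. No 2 libraries of a group were alike within counting noise: per degree of freedom, their chi-square was 134 to 893. Of 260 list symbols 235 matched an identifier. The 30 members and all lists were chosen with earlier results of these data known. Named with values in every library were members at an unadjusted p under 0.05 in either fit, p53-linked members and the member with the smallest p in each role. Other members shown that way were chosen after their values were seen. Of other lists, genes at an unadjusted p under 0.05 or else the 3 with the smallest p were named, with DDX21, cdkn1a, mdm2 and ccng1. Genes with values near 0 (sesn1, perp and siva1) or without reads (cycsa and tnfa) were named outside this rule. Cell type markers are given as sums, counts or medians. Some genes are not reported here. No sequences were used here.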

Additional observations from a re-analysis of the deposited data

Results flagged for a closer look

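Over the 28 members described and both groups, 56 sets of 4 libraries were examined for a library far from the other 3, and 4 had one by Dixon's 95% criterion on gap over range, where chance gives about 1 in 20. For bmf2, mutant 4 held 15.0 CPM against 1.39 to 2.20 CPM in the other mutants. For bcl2b, mutant 2 held 2.75 CPM, and the other mutants had 0 reads. For baxa, sibling 2 held 43.9 CPM against 21.1 to 24.8 CPM in the other siblings, and without sibling 2 the log2 fold change was 0.91 in place of 0.60. For bik, sibling 2 held 1.79 CPM against 3.63 to 3.89 CPM in the other siblings.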

How the results depend on the processing

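Of the members 0 passed an adjusted p of 0.05 under each alternative run, except that DESeq2 with the replicate block called 2. Most of these fits called 0 of all genes, so their 0 among the members carries no information about the members. Over all genes 1 was called without a filter and 2 by limma on the deposited log2 CPM. DESeq2 called 62, and 529 with the block. At an unadjusted p under 0.05 stood 1 of 30 members and 556 of 18549 genes. With the replicate block the counts were 3 members and 1086 genes, and for DESeq2 with the block 4 members and 2321 genes. They were 3 members and 860 genes for limma-voom with quality weights, and 0 members and 850 genes for limma on the deposited log2 CPM. Without single libraries they ran from 0 to 2 members and from 530 to 808 genes. Of the p53 targets outside cell death 6 stood at an unadjusted p under 0.05, and 5 to 7 did without single libraries. With the block the count was 11, and 12 for DESeq2 with the block, fits in which the count over all genes also rose, as given above. In edgeR 0 of all genes passed an adjusted p of 0.05 with or without the block, so no call of a member could change. Without single libraries the median log2 fold change ran from -0.54 to 0.06 for the BH3-only genes and from -0.34 to -0.10 for the caspase inhibitors. The median of the inhibitor antagonists was -0.41 for limma-voom and -0.38 without mutants 1 and 4 and sibling 4.

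Signs turned for members with small or imprecise log2 fold changes. For the main BOK gene the value was -0.14 with the replicate block, -0.15 for DESeq2 with the block, -0.23 for limma-voom and -0.13 on the deposited log2 CPM. For pmaip1 it was -0.03, -0.04, -0.0015 and -0.02 under the same 4 alternatives. For casp6a it was 0.0031 for DESeq2 with the block, and for limma-voom it was -0.07 for bbc3 and 0.19 for mcl1b. Without mutants 1 and 4 and sibling 4 the sign turned for 8 of the 28 members described: mcl1b (0.19), diablob (0.15), baxb (0.12), bmf2 (-0.23), BOK (-0.09), bbc3 (-0.32), bmf1 (0.42) and bcl2a (-0.34). It also turned for pidd1 (0.08), which is no member. Leaving out 1 library at a time gave ranges across 0 of -0.27 to 0.12 for mcl1b, -0.0026 to 0.25 for bcl2l1, -0.48 to 0.04 for diablob, -0.04 to 0.31 for apaf1, -0.14 to 0.20 for bcl2l10, -0.39 to 0.12 for baxb and -0.29 to 0.36 for BOK. They were -0.18 to 0.53 for pmaip1, -0.91 to 0.06 for bmf1 and -0.18 to 0.43 for bcl2a, and outside the members -1.65 to 0.04 for pidd1 and -0.50 to 0.00079 for the endothelial marker fli1a. The cause of these differences was not tested. Without a filter the median of all genes was -0.107.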
